A study of Mus musculus with 6 samples.

Results

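The genes described here encode 10 enzymes that carry glucose through glycolysis to lactate: the hexokinases Hk1 and Hk2, the phosphofructokinases Pfkl and Pfkp, the aldolase Aldoa, Gapdh, Pgk1, the enolase Eno1, the pyruvate kinase Pkm and the lactate dehydrogenase Ldha. They were taken by symbol from the gene rows of single-cell RNA sequencing of mouse small-intestinal (duodenal) organoids, and all 10 were found, in 11 rows. Aldoa is listed under 2 gene identifiers; the row with nearly all of its counts was used, and the other was at 0.12 CPM (counts per 1000000 UMIs of a sum) or less in every library. The study asked what the Na+/H+ exchanger NHE1 does in these organoids, which are epithelial cultures grown in matrix from crypts. The members were taken up as a pathway known to be sensitive to the pH of the cell.

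The 6 libraries were all collected on day 3. WT organoids from adult mice had received the NHE1 inhibitor EIPA or its DMSO vehicle, in 2 separate experiments that the replicate numbers mark, giving 2 WT -EIPA and 2 WT +EIPA libraries. A CRISPR line made from WT organoids, with doxycycline-inducible Cas9-EGFP and a guide against NHE1 delivered by lentivirus, was sequenced in a single experiment without and with doxycycline (1 CRISPR -Dox and 1 CRISPR +Dox library). The CRISPR line was kept as single clones, so a ratio between its 2 libraries is one of 1 culture each. All cells were sorted as live, and CRISPR +Dox cells also as GFP+, a gate the CRISPR -Dox cells did not pass through. EIPA can also inhibit other Na+/H+ exchangers, which limits it as a model of NHE1 loss.

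Hexokinases trap glucose in the cell as glucose 6-phosphate, and phosphofructokinase commits it to glycolysis in a step that acidity is known to slow. Aldolase, Gapdh, Pgk1, enolase and pyruvate kinase then yield ATP and pyruvate, and lactate dehydrogenase turns pyruvate into lactate, which leaves the cell together with a proton. In the small intestine, stem cells (ISC) and their dividing progeny lie in the crypt, absorptive enterocytes carry their own set of sugar-handling isozymes, and many genes of glycolysis are known targets of the hypoxia-inducible factor HIF, whose binding core is ACGTG.

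The promoters of Ldha, Hk2 and Pfkl are shown. The first has the most ACGTG cores among the members, and the second is the member with the most unlike pattern across cell classes. The third, the member farthest apart between the WT experiments, has none. Any link between these letters and the levels was not tested. Each sequence is the 250 bases before the RefSeq gene start on the gene's own strand (GRCm38.p6), and capitals mark ACGTG or its reverse complement CACGT. Coordinates are chr7:46845554-46845803, plus strand, for Ldha (a RefSeq start 4329 bases from the start of the gene in the annotation of the same build), chr6:82774455-82774704, minus strand, for Hk2, and chr10:78009808-78010057, minus strand, for Pfkl.
Ldha: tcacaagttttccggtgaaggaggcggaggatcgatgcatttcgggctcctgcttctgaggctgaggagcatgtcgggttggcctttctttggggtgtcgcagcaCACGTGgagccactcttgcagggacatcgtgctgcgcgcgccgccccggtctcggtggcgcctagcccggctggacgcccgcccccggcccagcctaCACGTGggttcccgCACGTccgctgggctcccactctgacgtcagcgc
Hk2: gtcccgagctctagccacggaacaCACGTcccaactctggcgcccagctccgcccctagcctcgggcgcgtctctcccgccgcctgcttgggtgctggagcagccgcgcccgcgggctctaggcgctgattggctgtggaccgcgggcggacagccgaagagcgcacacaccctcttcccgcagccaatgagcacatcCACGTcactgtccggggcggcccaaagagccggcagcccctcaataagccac
Pfkl: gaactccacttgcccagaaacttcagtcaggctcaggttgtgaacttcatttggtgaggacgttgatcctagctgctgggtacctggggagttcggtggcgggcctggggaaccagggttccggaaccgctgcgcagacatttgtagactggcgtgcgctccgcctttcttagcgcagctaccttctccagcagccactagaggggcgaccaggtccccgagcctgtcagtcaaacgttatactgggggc
In the full window of 250 bases before and 50 after the start, ACGTG occurred 5 times at Ldha, 2 times each at Hk2 and Pgk1 and 1 time at Gapdh, and not at the other 6 members, counting both strands and overlapping matches. Only the RefSeq promoter nearest the annotated start was read, of 3 listed for Aldoa and Eno1 and 2 for Hk1, Pkm and Ldha. The starts used for Gapdh, Aldoa, Pfkl and Pkm lay 694, 304, 276 and 208 bases from the annotated ones. The Ldha window holds the E-box CACGTG 2 times, and each CACGTG contains both letter runs and so gives 2 of the 5 matches. Of 32851 mouse promoters of this length, 19.6% held at least 1 ACGTG and 8.21% at least 2, and 7.15% held CACGTG. A match is a run of letters and was not tested as a binding site.

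After cells with fewer than 1000 genes or over 20% mitochondrial UMIs were left out, 12083 to 18211 cells per library remained (57.0% to 84.4% of barcodes), with 161670015 to 239368573 UMIs, which count single captured mRNA molecules, and medians of 11477.5 to 17020.0 UMIs per cell. Any 2 libraries shared 33 to 78 barcodes, at most 0.563% of the cells of a library. The cells formed 22 clusters, of which 16 were named from fixed markers and joined into 6 classes called ISC-like, proliferating-like, enterocyte-like, Goblet/Paneth-like, enteroendocrine (EEC)-like and tuft-like; 23.3% to 25.8% of cells per library stayed unnamed. The members and all other metabolic genes listed here were kept out of the clustering. The 12 markers of immune, stromal and endothelial cells summed to 0.989 to 1.74 CPM, with 2 to 5 of them at 0 in a library.

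By class medians, glycolytic enzymes were highest in enterocyte-like cells and lowest in ISC-like cells for most members, and the hexokinases and phosphofructokinases departed from one another in this. Within Goblet/Paneth-like cells, the cluster led by Defa30 had medians below the ISC-like ones for every member except Hk1 and Pfkp. In that cluster Ldha had a median of 767.1 CPM against 952.9 CPM in ISC-like cells, and Gapdh 1096 against 1349 CPM. Of the 10 members, 8 had 6 enterocyte-like levels that all lay above the 6 ISC-like levels, and Hk2 lay below in all of them, while 24.2% of 7960 measured genes lay above and 37.6% below in the same way. The classes were made from the same cells, so these levels are a description and carry no test, and levels are compared between classes and not between genes, since a 3' tag does not measure transcripts per length. Each class is given by its lowest, median and highest library.

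**Figure D1:**
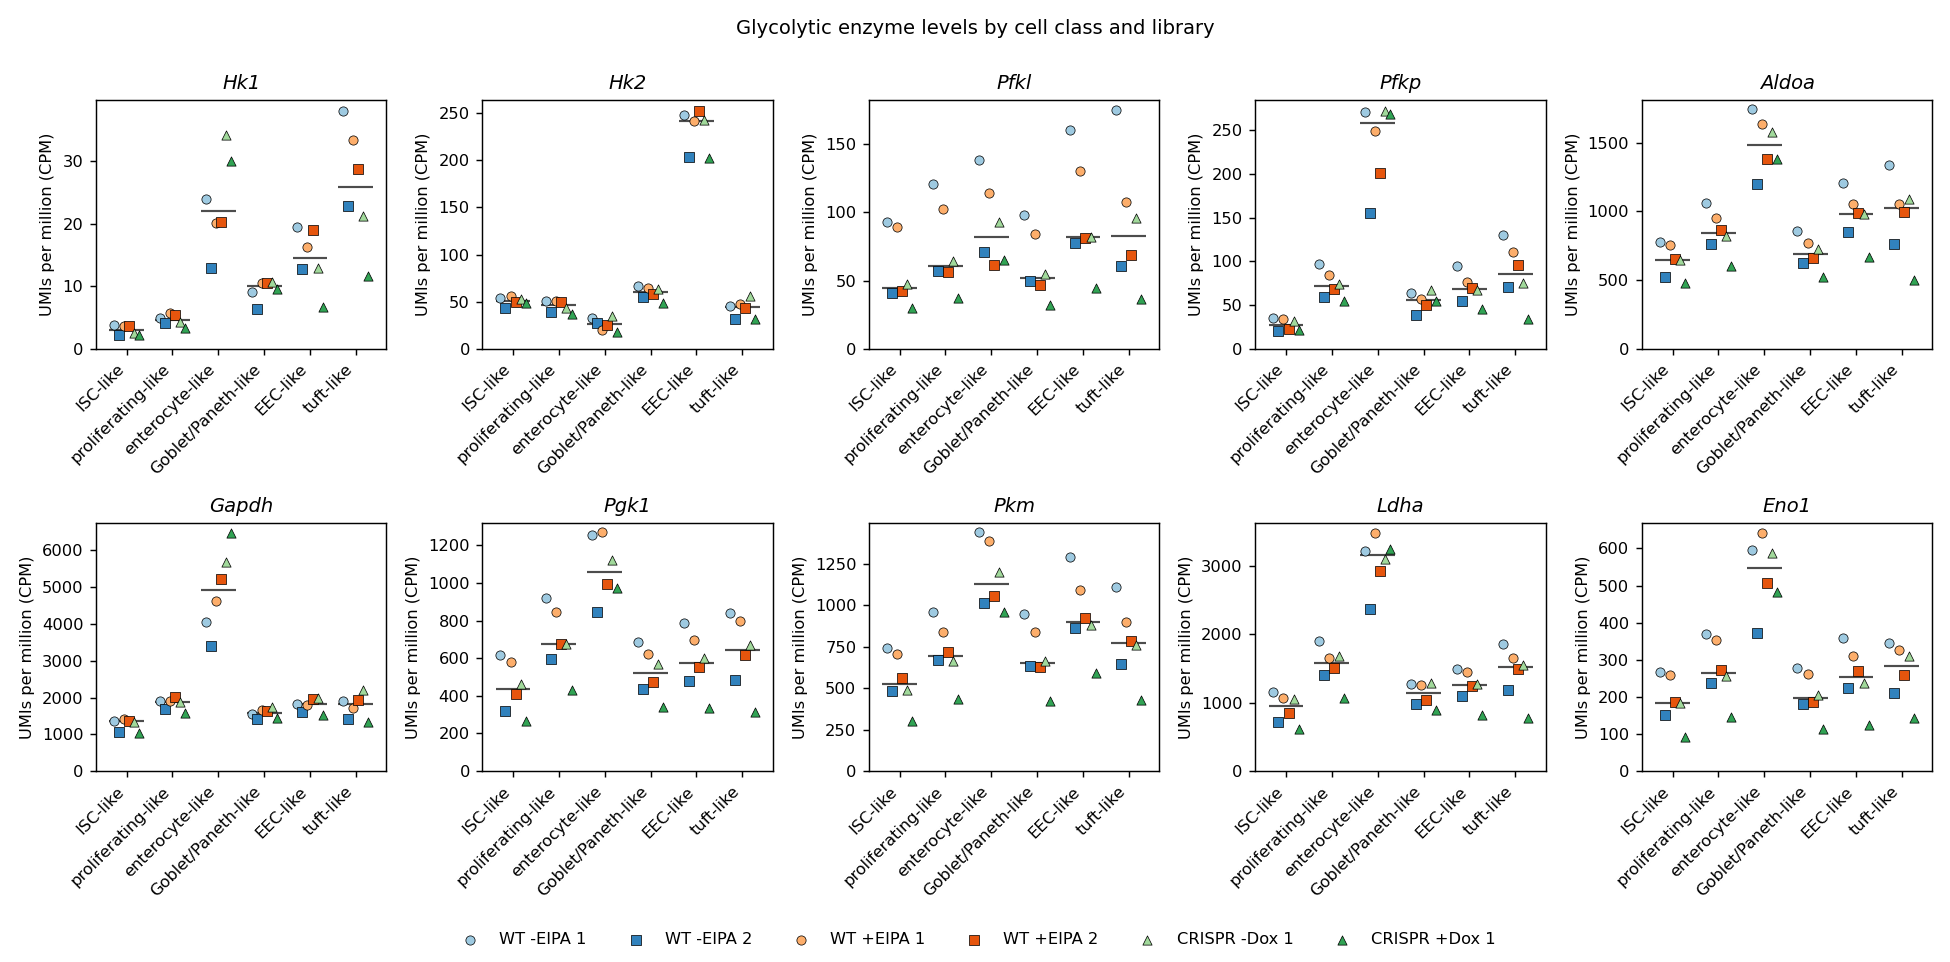
Levels of the 10 glycolytic enzymes (CPM, linear axes from 0, 1 panel per gene) in each of 6 cell classes; every point is 1 of the 6 libraries and the bar is their median. The enterocyte-like points lie above the ISC-like points for 8 genes, Hk2 is lowest in enterocyte-like and highest in EEC-like cells, and the tuft-like sum of CRISPR +Dox rests on 54 cells.

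Hk1, the hexokinase bound to mitochondria in most tissues, was at 2.13, 3.01 and 3.75 CPM in ISC-like cells and at 13.0, 22.1 and 34.3 CPM in enterocyte-like cells. Proliferating-like cells, at 3.28, 4.64 and 5.65 CPM, stayed below Goblet/Paneth-like cells, at 6.37, 10.1 and 10.6 CPM, with no overlap. The order from the top was tuft-like (median 25.9 CPM), enterocyte-like, EEC-like (14.6 CPM), Goblet/Paneth-like, proliferating-like and ISC-like, and apart from that step neighbouring classes overlapped. The ISC-like values are thin, with 50 UMIs in CRISPR -Dox and 37 in CRISPR +Dox.

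Hk2, the insulin- and hypoxia-responsive hexokinase, went the other way in the enterocyte-like class as a whole, though not in each of its clusters (below). It was at 43.3, 50.8 and 56.0 CPM in ISC-like cells and at 17.9, 26.3 and 34.3 CPM in enterocyte-like cells, a ratio of medians of 0.518. EEC-like cells held 202.6, 242.2 and 252.2 CPM, 9.19 times the enterocyte-like median, and no library of any other class reached that range. All 3 EEC-like clusters shared the high level, with medians of 242.1 CPM in the cluster led by Ghrl and Neurog3, 191.5 CPM in the one led by Chgb, Chga and Tac1 and 264.7 CPM in the one led by Gip and Cck. The next class was Goblet/Paneth-like, at 48.5, 60.7 and 66.7 CPM, where the cluster led by Zg16 and Clca1 had a median of 92.7 CPM.

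Pfkp, the platelet-type phosphofructokinase, was at 19.7, 27.3 and 34.7 CPM in ISC-like cells and at 154.8, 258.8 and 271.8 CPM in enterocyte-like cells, 9.47 times higher by medians. Tuft-like cells were next at 33.7, 86.0 and 130.5 CPM, below every enterocyte-like library. Pfkl, the liver-type enzyme, showed less of a step, at 29.6, 44.7 and 93.0 CPM in ISC-like and 61.2, 82.1 and 138.2 CPM in enterocyte-like cells, and no neighbouring classes of its order were apart. Its libraries spread widely within every class, and the 2 highest of the 6 were those of WT experiment 1 in each of the 6 classes.

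In the middle of the pathway, Gapdh had the clearest step. It was at 1047, 1349 and 1429 CPM in ISC-like cells, 1574, 1881 and 2011 CPM in proliferating-like cells and 3390, 4922 and 6481 CPM in enterocyte-like cells, with no overlap between any of these 3. Aldoa was at 474.3, 647.2 and 775.5 CPM in ISC-like and 1196, 1478 and 1744 CPM in enterocyte-like cells. Pgk1, which makes the first ATP of the pathway, was at 263.9, 436.9 and 615.6 CPM against 844.9, 1057 and 1270 CPM, and Eno1 at 91.95, 184.6 and 267.4 CPM against 373.0, 548.2 and 642.0 CPM. These 3 were 2.28, 2.42 and 2.97 times higher by medians, and Gapdh 3.65 times, while for Aldoa and Pgk1 every pair of neighbours in the order of classes overlapped.

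At the end of the pathway, Ldha was at 615.2, 952.8 and 1161 CPM in ISC-like cells and at 2374, 3167 and 3493 CPM in enterocyte-like cells, 3.32 times higher by medians. Proliferating-like cells, second in its order at 1066, 1583 and 1898 CPM, did not reach the enterocyte-like range. Pkm was at 304.5, 526.9 and 744.9 CPM in ISC-like and 960.2, 1128 and 1442 CPM in enterocyte-like cells, a ratio of 2.14, and its EEC-like cells came next with 590.7, 901.8 and 1289 CPM and overlapped them.

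Enterocyte-like cells were made up of 4 clusters, which differed in these genes. The largest cluster, led by Fabp1, Reg3a and Rbp2, made up 48.3% to 76.9% of the class, and a cluster led by Apoa4, Apob and Sis, whose cells had a median UMI count at 34.5% of that of their libraries, made up 18.8% to 44.6%. Hk2 was at 23.69, 20.45, 14.85, 19.37, 26.25 and 14.4 CPM in the first cluster and at 69.04, 55.45, 53.31, 73.37, 87.99 and 38.9 CPM in the second (WT -EIPA 1 and 2, WT +EIPA 1 and 2, CRISPR -Dox, CRISPR +Dox), higher in the second in each library. Hk1 was also higher there in each library, from 11.72 to 28.31 CPM in the first against 22.01 to 72.28 CPM in the second. Gapdh went the opposite way, at 3843 to 6585 CPM in the first and 1800 to 5850 CPM in the second, and was lower in the second in every library, as were Aldoa, Eno1 and Ldha. The 2 small clusters, one led by Reg1 and Reg3b and one by Ctrb1, had Hk2 medians of 16.05 and 30.42 CPM, beside 19.91 CPM in the largest cluster and 62.25 CPM in that led by Apoa4. The cluster led by Apoa4 thus had a higher Hk2 median than ISC-like cells (50.84 CPM), and its libraries overlapped theirs.

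Among isozyme partners that the member list leaves out, Pklr and Hkdc1 had their highest levels in enterocyte-like cells and Pfkm and Ldhb did not. Pklr, the liver-type pyruvate kinase, had a median of 193 CPM there against 11.5 CPM in ISC-like cells, and the hexokinase-like Hkdc1 105 against 4.21 CPM. The part of RNA free in the droplets in such values was not tested. The steps without a member followed the members, with Gpi1 at medians of 1130 against 298 CPM, Tpi1 at 1160 against 502 CPM and Pgam1 at 633 against 300.0 CPM. Pfkm, the muscle-type phosphofructokinase, stayed between 0.826 and 9.42 CPM in every class and library, with its highest median in EEC-like cells (7.16 CPM), and Ldhb, the heart-type lactate dehydrogenase, at 0.291 CPM or less outside tuft-like cells, where it was at 1.36 to 4.13 CPM.

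With EIPA, no member passed the main test over all cells or in any class. Over all cells 9 of the 10 estimates were positive, but this count ran from 3 to 10 when 1 WT library was left out. The members share the same libraries, so their signs are not separate results. A second fit, with the experiment as a block, called members in ISC-like and in Goblet/Paneth-like cells, as given below. The main test was edgeR's quasi-likelihood test on UMIs summed per library, 2 WT +EIPA against 2 WT -EIPA libraries, with Benjamini-Hochberg adjustment over all genes tested and a threshold of 0.05. Over all cells it called 0 of 15890 genes (0.0%), with 1601 genes and 2 members, Gapdh and Hk1, at an unadjusted p under 0.05, and DESeq2 called 586 genes and 0 members. In sums over all cells, fewer cells of a type and less RNA per cell cannot be told apart.

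Among the hexokinases, Hk1 over all cells was at 9.75 and 6.40 CPM in WT -EIPA and 11.3 and 11.2 CPM in WT +EIPA, with 11.8 CPM in CRISPR -Dox and 12.6 CPM in CRISPR +Dox. Its WT groups did not overlap, and the log2 fold change with EIPA was 0.56 ± 0.21 (SE, edgeR adjusted p = 0.492). Here and below, a lack of overlap between 2 and 2 libraries is a description and no test. The share of all genes that part in this way is not given. Hk2 was at 54.7 and 48.3 CPM in WT -EIPA, 56.1 and 54.5 CPM in WT +EIPA, 48.9 CPM in CRISPR -Dox and 41 CPM in CRISPR +Dox. Its WT groups overlapped, with WT +EIPA 2 just below WT -EIPA 1, and the change was 0.19 ± 0.084 (edgeR adjusted p = 0.577).

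Of the phosphofructokinases, Pfkl was at 122.4 and 59.1 CPM in WT -EIPA, 104.6 and 56.0 CPM in WT +EIPA, 70.6 CPM in CRISPR -Dox and 44.4 CPM in CRISPR +Dox. Experiment 1 was high and experiment 2 low with or without EIPA, and the change with EIPA was -0.10 ± 0.44 (edgeR adjusted p = 0.98). Pfkp was at 120.6 and 68.0 CPM, then 121.5 and 93.3 CPM, and 115.7 and 113.8 CPM in the same order. WT -EIPA 2 stood lowest, and the change was 0.27 ± 0.29 (edgeR adjusted p = 0.85).

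Gapdh, the member of lowest p, was at 2186 and 1826 CPM in WT -EIPA, 2479 and 2553 CPM in WT +EIPA, 2654 CPM in CRISPR -Dox and 2880 CPM in CRISPR +Dox. Its WT groups did not overlap and the change was 0.41 ± 0.12 (edgeR adjusted p = 0.397, and 0.0774 with the experiment as a block). Aldoa was at 1191 and 823.5 CPM, 1139 and 970.4 CPM, and 1010 and 833.9 CPM in the same order, and its change was 0.15 ± 0.20. Pgk1, at 944.8 and 591.0 CPM, 928.8 and 706.0 CPM, and 780.5 and 569.0 CPM, had a change of 0.17 ± 0.25. In both, WT -EIPA 2 was the low library of the WT set. Eno1 was at 390.5 and 242.1 CPM, 401.0 and 301.2 CPM, and 319.9 and 229.5 CPM, with a change of 0.23 ± 0.26. Pkm was at 1040 and 712.3 CPM, 986.2 and 788.7 CPM, and 791.2 and 582.8 CPM, with a change of 0.10 ± 0.21. Ldha was at 2017 and 1435 CPM, 2033 and 1708 CPM, and 1940 and 1627 CPM, with a change of 0.20 ± 0.19. For these 5 genes the edgeR adjusted p lay between 0.814 and 0.947 and the WT groups overlapped.

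Over all cells the members' median change was 0.19, beside a median of 0.00 over all genes tested. Within the experiments the ratios were unlike: in experiment 1, 4 of the 10 members had a log2 ratio of -0.02 to -0.23 and the others 0.01 to 0.21, while in experiment 2 all but Pfkl (-0.08) were positive, from 0.15 for Pkm to 0.80 for Hk1. These are ratios of CPM; with the TMM scaling of the test they ran from -0.17 for Pfkl to 0.28 for Hk1 in experiment 1 and from 0.03 for Pfkl to 0.91 for Hk1 in experiment 2. The positive medians thus came mostly from experiment 2. The 18 enterocyte markers summed to 7090 and 4140 CPM in WT -EIPA and to 12800 and 11600 CPM in WT +EIPA, and 10 genes of the dissociation stress response to 1200 and 1440 against 696 and 677 CPM; the part of these in the change of the members was not tested.

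**Figure D2:**
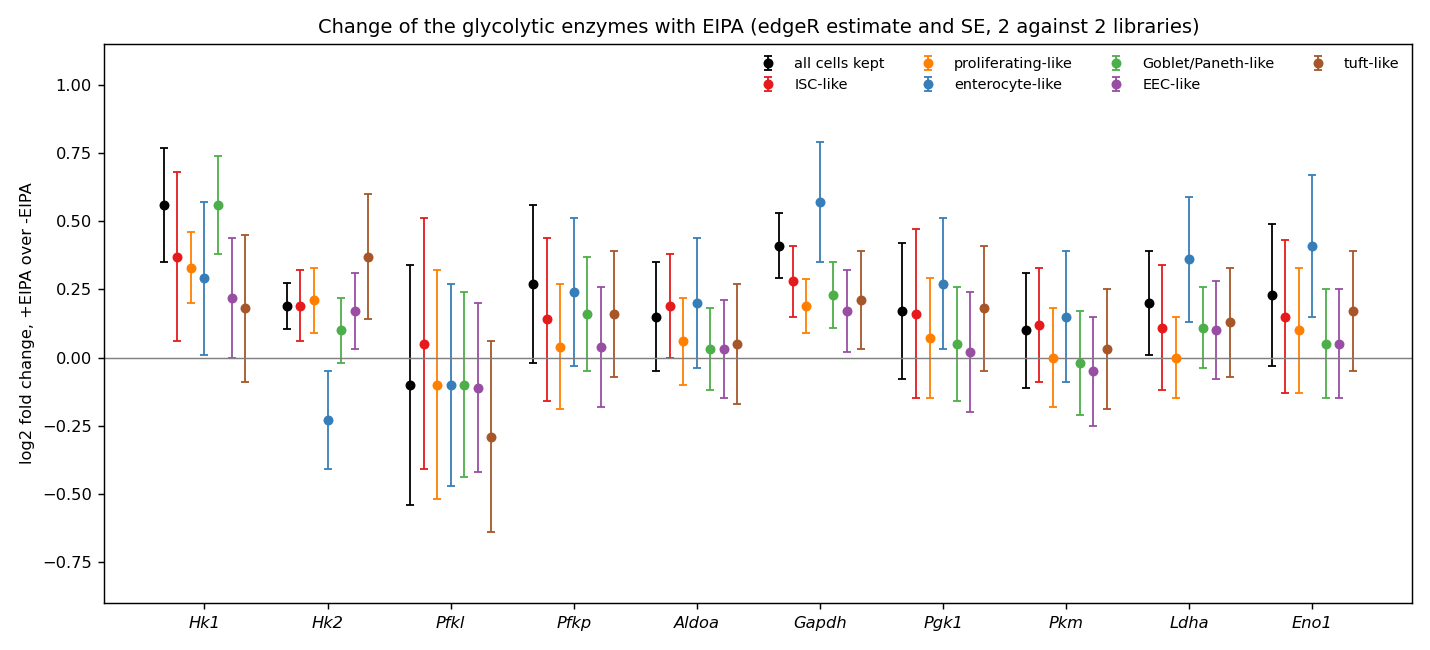
Log2 fold change with EIPA (+EIPA over -EIPA, edgeR estimate with SE bars, 2 against 2 libraries) of each glycolytic enzyme over all cells and in 6 classes. Gapdh is above 0 by more than its SE in each of the 7 sets, Pfkl has wide bars around 0, and none of the points passed an adjusted p of 0.05 in this fit, which has no term for the experiment.

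In enterocyte-like cells the members' median was 0.26 beside -0.02 for all genes. Gapdh was at 4054 and 3390 CPM without and 4628 and 5216 CPM with EIPA, with no overlap and a change of 0.57 ± 0.22 (edgeR adjusted p = 0.206, 0.0687 with the experiment as a block), and it was the only member DESeq2 called there, at an adjusted p of 0.0235, among 560 of 18095 genes that DESeq2 called (3.09%). Eno1, at 597.2 and 373.0 against 642.0 and 508.1 CPM, had an estimate of 0.41 ± 0.26, and Ldha, at 3224 and 2374 against 3493 and 2923 CPM, of 0.36 ± 0.23 (edgeR adjusted p = 0.396 and 0.405). Of 11932 genes tested with edgeR, 0.268% were called. Library-size scaling, which moves the median of all genes by -0.17, brought the members' median to 0.09. Enterocyte markers within this class summed to 46900 and 37700 CPM without and 63000 and 63700 CPM with EIPA, and the stress genes to 1090 and 1380 against 580 and 553 CPM; their part in the values was not tested.

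In ISC-like cells edgeR called no gene (0.0% of 11838; 412 genes and no member at an unadjusted p under 0.05; DESeq2 21 genes and no member). Gapdh was at 1363 and 1059 CPM without and 1429 and 1370 CPM with EIPA (0.28 ± 0.13), Hk2 at 53.5 and 43.3 against 56.0 and 49.4 CPM (0.19 ± 0.13) and Hk1 at 3.75 and 2.24 against 3.67 and 3.56 CPM (0.37 ± 0.31), each with an edgeR adjusted p of 0.998. All 10 estimates were positive, with a median of 0.16, and 3 to 10 were positive when 1 WT library was left out. With the experiment as a block, 4 members were called in this class: Gapdh (0.29 ± 0.05, edgeR adjusted p = 1.24e-06), Aldoa (0.21 ± 0.051, 0.00116), Pgk1 (0.21 ± 0.051, 0.00177) and Eno1 (0.19 ± 0.054, 0.0121), where 6.07% of genes were called. Within experiment 1 the log2 ratios of CPM of Aldoa, Pgk1 and Eno1 were -0.04, -0.08 and -0.05, which the TMM scaling of the test turned to 0.02, -0.02 and 0.01. Within experiment 2 they were 0.33, 0.37 and 0.30, and 0.40, 0.44 and 0.37 with that scaling. Gapdh was at 0.07 and 0.37 in the 2 experiments, and at 0.13 and 0.44 with the scaling. That fit, which also gives the difference between the experiments, has 1 residual degree of freedom among its 4 libraries, so its standard errors rest on a spread shared across genes. Over all cells the block called no member and 5.28% of genes.

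In the other classes the 3 members of lowest p were mostly the same. In proliferating-like cells (0.0% of 13671 genes called; 626 genes and 1 member, Hk1, at an unadjusted p under 0.05; DESeq2 102 genes and no member) the estimates were 0.33 ± 0.13 for Hk1, 0.19 ± 0.099 for Gapdh and 0.21 ± 0.12 for Hk2. Hk1 was at 4.97 and 4.18 against 5.65 and 5.38 CPM there, without overlap. In Goblet/Paneth-like cells (0.269% of genes called) Hk1 was at 9.07 and 6.37 against 10.51 and 10.52 CPM, an estimate of 0.56 ± 0.18 (edgeR adjusted p = 0.519), with 0.23 ± 0.12 for Gapdh and 0.10 ± 0.12 for Hk2. With the experiment as a block Hk1 was called in Goblet/Paneth-like cells (0.59 ± 0.13, edgeR adjusted p = 0.00121), beside 5.96% of all genes. In EEC-like cells (0.0163% called) Hk2, at 248.4 and 203.2 against 241.9 and 252.2 CPM, had an estimate of 0.17 ± 0.14, Gapdh of 0.17 ± 0.15 and Hk1 of 0.22 ± 0.22. In tuft-like cells (0.0413% called) Hk2, at 45.4 and 31 against 47.7 and 43.3 CPM, had an estimate of 0.37 ± 0.23, Gapdh of 0.21 ± 0.18 and Pfkl of -0.29 ± 0.35. The edgeR adjusted p of each was 1.0 in proliferating-like, EEC-like and tuft-like cells.

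Whether the change differed between classes was tested with class and library in 1 fit. Between enterocyte-like and ISC-like cells, 4.15% of 12507 genes differed and no member did. The members nearest to it were Hk2 (-0.39 ± 0.17, edgeR adjusted p = 0.189), Eno1 (0.28 ± 0.13, 0.211) and Gapdh (0.32 ± 0.15, 0.216). Hk2 in enterocyte-like cells was at 32.3 and 27.6 CPM without and 20.3 and 25.1 CPM with EIPA, log2 ratios of -0.67 and -0.14 within the experiments, while in ISC-like cells these were 0.07 and 0.19. The sign in experiment 2 depends on the scaling: with the TMM factors of each class's test the ratios were -0.56 and 0.09 in enterocyte-like and 0.13 and 0.26 in ISC-like cells. Among the isozymes and transporters the same term was called for Pklr (0.79 ± 0.19, edgeR adjusted p = 0.0359), for the gluconeogenic phosphatase Fbp1 (1.44 ± 0.24, 0.0123) and for the sodium-glucose transporter Slc5a1 (1.03 ± 0.19, 0.0137). Between Goblet/Paneth-like and ISC-like cells, 0.182% of genes differed, and the members of lowest p were Pkm (-0.16 ± 0.066, edgeR adjusted p = 0.508), Aldoa (-0.18 ± 0.074, 0.509) and Eno1 (-0.14 ± 0.088, 0.65). Slc5a1 (0.98 ± 0.14, edgeR adjusted p = 0.0172) was called there. No gene of the 6 pathway lists was called with EIPA over all cells or within a class by this test. With the experiment as a block, over all cells, the glucose transporter Slc2a2 rose by 1.89 ± 0.3 (edgeR adjusted p = 0.0422), and Pcx and Pck2, which serve gluconeogenesis, by 0.97 ± 0.14 (0.0351) and 0.43 ± 0.046 (0.0228). Within classes the block called 10 genes of these lists in enterocyte-like cells, all higher with EIPA (11.2% of all genes called in either direction), among them Slc2a2 (1.31 ± 0.19, edgeR adjusted p = 0.000358), Fbp1 (1.14 ± 0.23, 0.00419), Slc5a1 (1.10 ± 0.21, 0.00355) and Pklr (0.61 ± 0.18, 0.0367). It called 10 in Goblet/Paneth-like cells (5.96% of all genes), 3 in ISC-like (6.07%) and 2 in EEC-like cells (1.73%), all higher, and none in tuft-like cells (0.403%). In proliferating-like cells (5.37%) 3 were higher and 2 lower, Aldoc (-0.38 ± 0.082, edgeR adjusted p = 0.0284) and Fbp1 (-0.37 ± 0.077, 0.0231). The enterocyte markers given above also summed higher with EIPA over all cells and in enterocyte-like cells, and their part in these values was not tested.

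More members were called between the 2 WT experiments than with EIPA. This comparison was chosen after the data were seen: libraries of replicate 1 over those of replicate 2, with EIPA as a term of the same fit. In ISC-like cells 9 of 10 members were called, all higher in experiment 1, and Hk1 was not (0.38 ± 0.23, edgeR adjusted p = 0.285), beside 19.0% of all genes called in either direction. Pfkl was at 92.98 and 89.64 CPM in experiment 1 (without and with EIPA) and at 40.58 and 42.21 CPM in experiment 2, and was higher by 1.12 ± 0.07 on the log2 scale (edgeR adjusted p = 5.32e-55). Pgk1 was at 615.6 and 582.5 against 317.6 and 410.2 CPM (0.71 ± 0.052), Pfkp at 34.70 and 34.44 against 19.68 and 22.73 CPM (0.69 ± 0.095) and Eno1 at 267.4 and 258.8 against 150.9 and 185.4 CPM (0.64 ± 0.055). In each of these 4 genes both libraries of experiment 1 lay above both of experiment 2. Ldha (0.49), Pkm (0.46) and Aldoa (0.38) followed, and Hk2 (0.22, edgeR adjusted p = 0.0179) and Gapdh (0.19, 0.00147) changed least. DESeq2 called Pfkl, Pfkp (adjusted p = 0.00968), Pkm and Eno1 (0.0171), 4 of the 9, beside 2.16% of 17742 genes. Without correction of the clustering across libraries, where the class held 194 and 114 cells of the WT +EIPA libraries, 4 members were called, beside 3.48% of genes. Leaving out WT -EIPA 1, WT -EIPA 2 or WT +EIPA 1, with no EIPA term since 3 libraries allow none, left 1, 4 and 3 members called among 118, 611 and 207 genes, and leaving out WT +EIPA 2 left 9 among 1036.

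**Figure D3:**
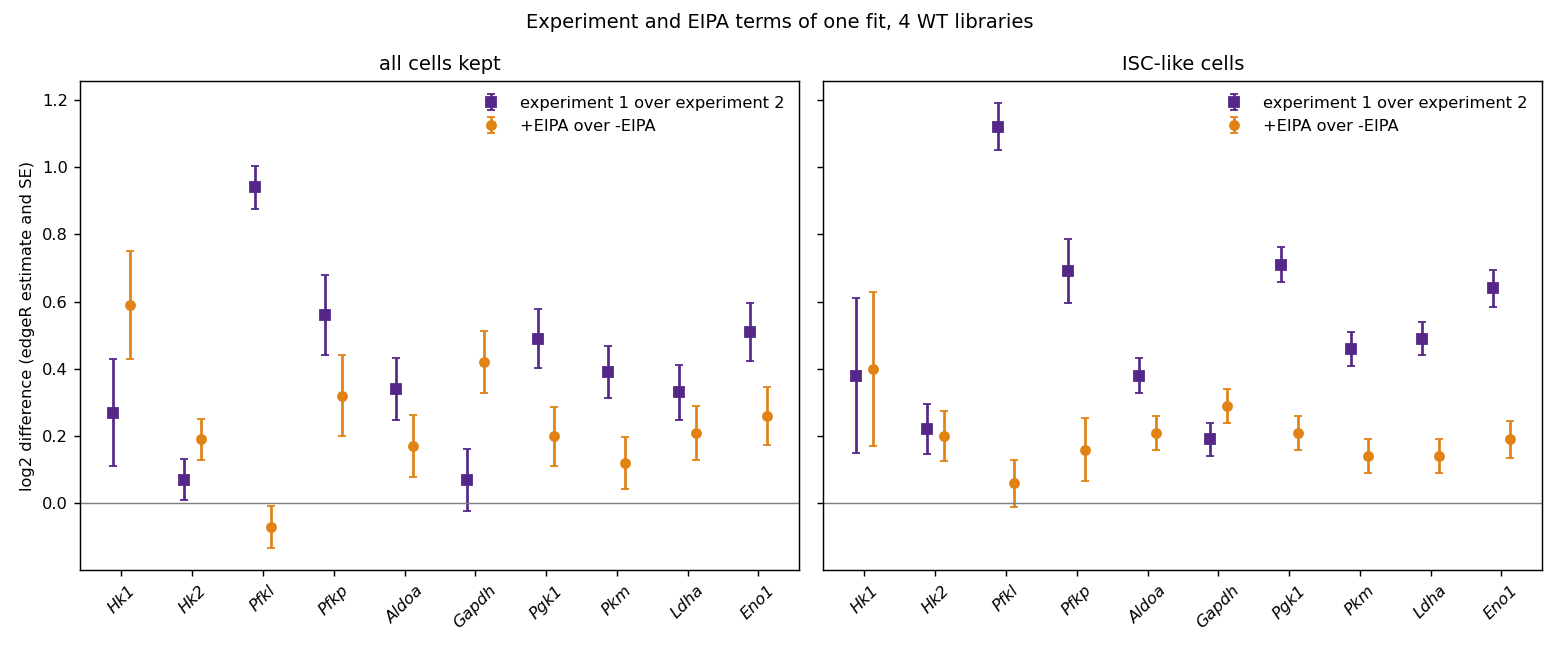
Experiment term (squares, experiment 1 over experiment 2) and EIPA term (circles) of the same edgeR fit on 4 WT libraries, as log2 differences with SE bars, for each glycolytic enzyme over all cells (left) and in ISC-like cells (right). In ISC-like cells the experiment term exceeds the EIPA term for all members except Hk1 and Gapdh, with Pfkl at 1.12 and Gapdh lowest at 0.19.

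The difference held unevenly across classes. Over all cells 3 members were called, Pfkl (0.94 ± 0.064, edgeR adjusted p = 0.00564), Eno1 (0.51 ± 0.087, 0.0393) and Pgk1 (0.49 ± 0.088, 0.0423), beside 8.11% of genes; in proliferating-like cells 7, all but Hk1, Hk2 and Gapdh, beside 22.0%; in Goblet/Paneth-like cells 5 (Pfkl, Pfkp, Pgk1, Pkm and Eno1) beside 8.93%; and in EEC-like cells 6, the same 5 and Ldha, beside 6.74%. In enterocyte-like and tuft-like cells Pfkl alone was called, at 0.94 ± 0.14 (edgeR adjusted p = 0.000697) and 1.09 ± 0.19 (0.000696), beside 1.76% and 1.05% of genes. Pfkl was thus called in all 6 classes by edgeR, and DESeq2 called it in each except tuft-like cells. When a WT library was left out, the EIPA term had to be dropped as well. The members' median difference then ran from 0.22 to 0.60 over all cells and from 0.19 to 0.67 in enterocyte-like cells. Dropping that term with every WT library kept left no member called over all cells or in enterocyte-like cells. Gapdh was between 0.00 and 0.19 in all classes.

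Other genes of the pathway also differed between the experiments in ISC-like cells, where 19.0% of all genes were called in either direction. Of the 13 other glycolytic genes tested, 7 rose and 1 fell, among them Tpi1 (0.50 ± 0.051) and Gpi1 (0.35 ± 0.053). The gene that fell was Eno1b (-2.05 ± 0.17), a close copy of Eno1, at 4.58 and 4.85 CPM over all cells in experiment 1, 16.7 and 23.9 CPM in experiment 2, and 27.3 and 28.6 CPM in the CRISPR line; reads that fit both copies are not counted, so the level of Eno1 is uncertain by what it shares with the copy. Gapdh and Pgk1 are known to have processed pseudogenes, and their levels may be understated in the same way, which was not checked. Among 17 HIF targets outside glycolysis, 8 rose, among them the carbonic anhydrase Car9 (0.52) and Bnip3 (0.43), which marks mitochondria for removal, and 2 fell, Ddit4 (-0.47) and Vegfa (-0.46). Bnip3 was at 31.5 and 25.6 CPM in experiment 1 (without and with EIPA) and at 17.0 and 25.9 CPM in experiment 2. Of the same targets, 5 rose and 4 fell in proliferating-like cells (22.0% of all genes called) and 1 rose and 4 fell in Goblet/Paneth-like cells (8.93%). In EEC-like cells 1 rose and 1 fell (6.74%), in tuft-like cells 1 rose (1.05%), and in enterocyte-like cells none was called (1.76%). In ISC-like cells the kinase Pdk1, which restrains the use of pyruvate in the mitochondrion, rose by 0.54 ± 0.081, and the lactate exporter Slc16a3 by 0.50 ± 0.11. Slc16a3 was at 25.3 and 20.8 CPM in experiment 1 (without and with EIPA) and at 13.6 and 19.2 CPM in experiment 2. For Bnip3 and Slc16a3 the difference thus lay mostly in the libraries without EIPA. The experiments also differed in the Paneth markers, whose 16 genes summed in ISC-like cells to 1370 and 1190 CPM in experiment 1 and 2650 and 2870 CPM in experiment 2, and in mitochondrial UMIs, with medians of 5.27% and 4.83% against 3.5% and 3.42% of a cell; the part of these in the difference was not tested.

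With Dox, 6 of 9 measured members in ISC-like (2.86% of all measured genes), 5 of 9 in proliferating-like (2.21%), 5 of 10 in Goblet/Paneth-like (3.48%) and 8 of 10 in EEC-like cells (3.85%) were lower past a set fold. In enterocyte-like cells 2 of 10 were, beside 13.6% of all genes. The ISC-like count fell to 0 when the clustering was not corrected across libraries. There is 1 library per condition and hence no test; levels carry an exact 95% Poisson interval that covers counting error only, and a gene counts as past the fold at a log2 ratio of CPM of 0.5 or more in either direction, among genes at 10 CPM or more in either library. No member was higher past the fold in any class. In ISC-like cells 6 of 9 measured members were lower (2.86% of 7558 genes lower, 1.51% higher) and the members' median was -0.68, beside -0.07 for all genes. Eno1 was at 183.8 CPM (178 to 190.0) without and 91.95 CPM (87.5 to 96.6) with Dox, a log2 ratio of -1.0, and Pgk1 at 463.6 (454 to 473) and 263.9 CPM (256 to 272), a ratio of -0.81. Ldha was at 1050 (1040 to 1060) and 615.2 CPM (604 to 627), a ratio of -0.77. Pkm (-0.69), Pfkl (-0.68) and Pfkp (-0.56) were also past the fold, while Aldoa (-0.44), Gapdh (-0.35) and Hk2 (-0.11) were not, and Hk1 was under 10 CPM in both.

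The ISC-like ratios depend on which cells are called ISC-like. Without correction of the clustering across libraries, 97.6% of the cells of 1 of 2 ISC-like clusters came from CRISPR +Dox, the class held 1621 CRISPR -Dox and 2442 CRISPR +Dox cells in place of 1822 and 1081, and no member was lower past the fold there, 1 (Pfkp) was higher, and the median was -0.10. In proliferating-like cells a cluster split off likewise without the correction, with 98.5% of its cells, 1562 in number, from CRISPR +Dox, and 6 members were lower in place of 5. TMM scaling, which centres the libraries on the bulk of genes, kept the 6 members lower and turned the split of all genes in ISC-like cells from 114 higher and 216 lower to 163 and 144.

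**Figure D4:**
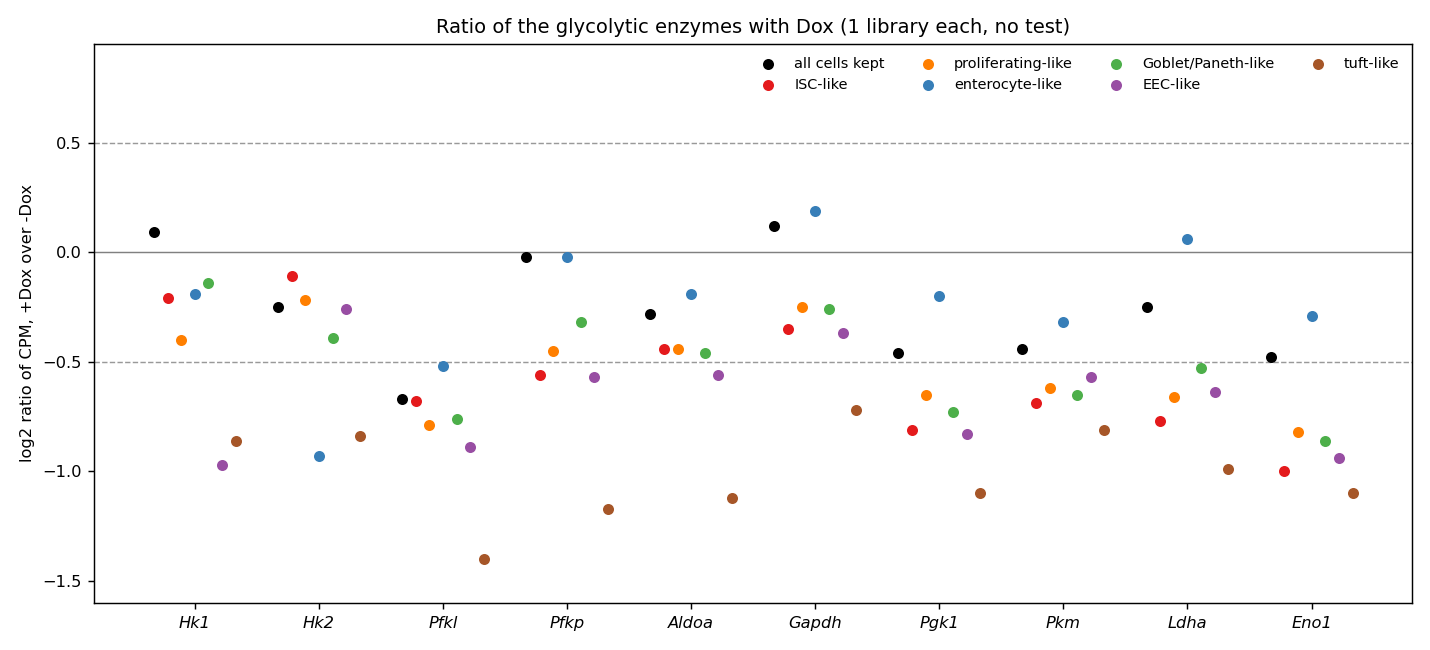
Log2 ratio of CPM of CRISPR +Dox over CRISPR -Dox (1 library each, no test) of each glycolytic enzyme over all cells and in 6 classes, with dashed lines at the fold of 0.5 in either direction. Eno1, Pgk1 and Pfkl lie below the lower line in most classes, of the 6 classes the enterocyte-like point sits nearest to 0 for every gene except Hk1 (-0.19) and Hk2 (-0.93), and no point lies above the upper line.

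In proliferating-like cells 5 of 9 measured members were lower (2.21% of genes lower, 2.06% higher; 156 higher and 168 lower, or 194 and 135 with TMM scaling). Eno1 was at 257.3 and 145.5 CPM (-0.82), Pfkl at 64.6 and 37.3 CPM (-0.79) and Ldha at 1686 and 1066 CPM (-0.66), without and with Dox. Pgk1 (-0.65) and Pkm (-0.62) completed them. In Goblet/Paneth-like cells the same 5 were lower (3.48% of genes lower, 2.25% higher; 174 higher and 269 lower, or 279 and 109 with TMM scaling, which left 4): Eno1 by -0.86, Pfkl by -0.76, Pgk1 by -0.73, Pkm by -0.65 and Ldha by -0.53. In EEC-like cells 8 were lower, all but Hk2 (242.5 and 202.6 CPM, -0.26) and Gapdh (-0.37), from -0.56 for Aldoa to -0.97 for Hk1 with 41 and 54 UMIs (3.85% of genes lower, 3.74% higher). In tuft-like cells all 10 were lower, from -0.72 for Gapdh to -1.40 for Pfkl, but the sums rest on 74 and 54 cells and 15.1% of genes were lower and 17.8% higher.

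In enterocyte-like cells, the members lower past the fold were Hk2 and Pfkl. Hk2 was at 34.3 CPM (32.2 to 36.4) without and 17.9 CPM (16.7 to 19.2) with Dox, a ratio of -0.93, and Pfkl at 93.3 and 64.9 CPM, a ratio of -0.52 (13.6% of genes lower, 8.34% higher; 596 higher and 971 lower, or 905 and 622 with TMM scaling, under which Hk2 alone stayed past it). Gapdh was at 5677 and 6481 CPM (0.19), Ldha at 3110 and 3249 CPM (0.06) and Pgk1 at 1121 and 975.8 CPM (-0.20). Hk2 was lower with Dox in both large enterocyte-like clusters, that led by Fabp1 and that led by Apoa4. Over all cells Pfkl alone was past the fold, at 70.55 and 44.38 CPM (-0.67), beside 3.57% of genes lower and 6.66% higher, and the members' median was -0.27 beside -0.08 for all genes.

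The +Dox library differed from the -Dox library in other ways that stand beside these ratios. Its 18 enterocyte markers summed to 15900 against 7470 CPM over all cells and its 16 Paneth markers to 22800 against 6810 CPM, the 10 stress genes to 739 against 1370 CPM, and its cells had a median of 17020.0 against 11952.0 UMIs. Within ISC-like cells the enterocyte markers summed to 1290 against 975 CPM and the stress genes to 776 against 1390 CPM. Of the Goblet/Paneth-like cells, the cluster led by Lyz1 and Ang4 held 791 of 1720 without and 1259 of 2138 with Dox. That led by Agr2 and Fcgbp held 657 and 491. The cluster led by Lyz1 had the lower median for each member lower past the fold in this class, such as Eno1 (174.8 against 255.8 CPM). The GFP gate and Dox cannot be told apart, and the part of the marker sums and of these clusters in the ratios was not tested.

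Several genes around the pathway were lower with the members. Of the HIF targets measured outside glycolysis, 7 of 15 were lower past the fold in ISC-like cells (2.86% of all genes), 8 of 15 in proliferating-like (2.21%), 6 of 16 in Goblet/Paneth-like (3.48%) and 10 of 16 in EEC-like cells (3.85%). In enterocyte-like cells 4 of 16 were lower, beside 13.6% of all genes. None was higher in these 5 classes. In tuft-like cells, with 74 and 54 cells, 12 of 15 were lower and 1, Mxi1 (0.69), was higher, beside 15.1% and 17.8% of genes. Without correction of the clustering, those lower were 1, 6, 5, 10, 4 and 12 in the same order of classes. In ISC-like cells Bnip3 was at 36.5 and 12.9 CPM (-1.50), Egln3, an oxygen-sensing prolyl hydroxylase, at 10.6 and 3.97 CPM (-1.42) and P4ha1, a collagen prolyl hydroxylase, at 13.8 and 7.02 CPM (-0.97), without and with Dox. In proliferating-like cells Egln3 was at 30.0 and 9.99 CPM (-1.58) and Bnip3 at 66.4 and 27.2 CPM (-1.29). Slc16a3 was at 20.7 and 6.21 CPM (-1.73) in ISC-like and 49.0 and 17.5 CPM (-1.49) in proliferating-like cells. Of the steps without a member, Tpi1 at 526 and 347 CPM (-0.60) and Pgam1 at 298 and 186 CPM (-0.68) were lower past the fold in ISC-like cells as well. Gpi1, at 319 and 254 CPM (-0.33), was not past it. Without correction of the clustering, none of 10 other glycolytic genes measured in ISC-like cells was lower past the fold and 2 were higher, with a median of 0.00, and none of 4 genes of glucose and lactate transport was lower.

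Some genes of sugar uptake and gluconeogenesis went the other way over all cells, where 6.66% of all genes were higher past the fold. These were 2 of 6 measured genes of glucose and lactate transport (list median -0.16) and 3 of 8 of PFK2 and gluconeogenesis (0.34), while 1 of the 8, Pfkfb3, was lower (-0.63). The transporters Slc2a2 (24.0 and 98.6 CPM, 2.04) and Slc5a1 (374 and 946 CPM, 1.34) were higher with Dox, as were Fbp1 (8.50 and 32.0 CPM, 1.91), G6pc, which releases free glucose (16.9 and 61.5 CPM, 1.86), Hkdc1 (0.67) and Pklr (0.64). Within enterocyte-like cells Slc2a2 (1.36), Slc5a1 (1.01), Fbp1 (1.28) and G6pc (1.16) were still past the fold, and Pklr (0.27) and Hkdc1 (0.34) were not. Slc2a2, G6pc and Slc5a1 were also past it in Goblet/Paneth-like (2.06, 2.13 and 1.07) and EEC-like cells (2.00, 2.74 and 0.86). There 2.25% and 3.74% of all genes were higher. In tuft-like cells, with 74 and 54 cells, they were at 2.11, 1.73 and 0.81, beside 17.8%. Slc2a2 and G6pc were under 10 CPM without Dox in these classes. In ISC-like and proliferating-like cells none of these genes was higher past the fold. The higher sum of enterocyte markers with Dox stands beside these values, and its part in them was not tested.

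Across the 36 sums of 6 classes and 6 libraries, the members' common pattern was that of Aldoa and Pkm (Pearson r of 0.976 and 0.956 with the members' mean of centred log2(CPM + 1)), and Hk2 did not follow it (0.00983). Outside the pathway lists, the genes at 20 CPM or more with the most like pattern were Grhpr (0.926), Nampt (0.885), Pgm1 (0.873), Prelid2 (0.867) and Ap2m1 (0.858). Each member is part of that mean and the outside genes are not, so the r of members and of outside genes are not to be compared. All are descriptions over sums that share libraries and depth, and they carry no p.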

How the data were processed

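The authors sorted live organoid cells (live GFP+ cells for CRISPR +Dox), made 10x Genomics 3' libraries and deposited per-library matrices of UMI counts from Cell Ranger 6.1.2 on mm10 (GRCm38), per the submitters' processing notes; the deposited counts are raw and whole, with 1 matrix per sample. From them, a cell was retained if it held 1000 genes or more and less than 20% mitochondrial UMIs. Clusters were made from Pearson residuals of 3000 genes, none of them a member or a gene of the metabolic lists, with a Harmony correction over the 6 libraries and Leiden resolution 0.8 (Python 3.11.15, scanpy 1.11.5, igraph 0.11.9), and named from the fixed markers. A cluster took the class of the list with the most markers among its leading genes. Where these were too few, or mitochondrial genes or low depth marked the cluster, it stayed unnamed, as 6 clusters did. No doublets were removed, since the caller marked 0.00793%, 0.0% and 0.0% of cells in 3 libraries (WT -EIPA 1, WT -EIPA 2 and WT +EIPA 1) and 10.7%, 11.9% and 12.5% in the other 3, so that its own threshold would have removed cells unequally; removing the 10% of cells with the highest doublet scores in each library is an alternative chosen after the data were seen.

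UMIs were summed per library and class and tested with edgeR 4.0.16 in R 4.3.3 (TMM, filterByExpr, quasi-likelihood F test, adjusted p under 0.05 over all genes), with DESeq2 1.42.0 as an alternative. The 2 WT libraries of a group are separate experiments. Replicate numbers mark these experiments, and same-numbered libraries deviated together (r of 0.69 over all cells; by class, 0.179 tuft-like, 0.373 enterocyte-like, 0.474 EEC-like, 0.538 Goblet/Paneth-like, 0.606 ISC-like and 0.732 proliferating-like; 2 pairs), so the fit with the experiment as a block is given where it changes a call of a member, and as counts for the other lists. The study tested single cells; here cells are not taken as replicates, and the 2 CRISPR libraries are compared with no test. The scripts were tested on simulated data. Positions are from the annotation of GRCm38, and promoter sequences, matched by symbol for 10 of 10 members, from RefSeq on GRCm38.p6. Poisson intervals are at 95% and cover counting error only.

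Named were every member, with the 3 members of lowest p in each class where fewer than 3 passed, members past a log2 ratio of 0.5 with Dox, and at most 5 genes per list and comparison past the threshold, plus Hkdc1, Pfkm, Pklr, Ldhb, Gpi1, Tpi1 and Pgam1; some genes that this rule names are not reported here. Members, lists and tests were chosen with earlier results of these data known. No protein sequences were used here.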

Additional observations from a re-analysis of the deposited data

Results flagged for a closer look

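Hk2 is singled out because its ratio of CPM with EIPA had opposite signs in 2 classes in both experiments; with the TMM scaling of the tests this held in experiment 1 only. The difference between its log2 fold changes in enterocyte-like and ISC-like cells was -0.39 ± 0.17, with an edgeR adjusted p of 0.189 that misses the threshold. Within the experiments its log2 ratio was -0.67 and -0.14 in enterocyte-like cells and 0.07 and 0.19 in ISC-like cells, and with the TMM scaling -0.56 and 0.09 against 0.13 and 0.26. In the CRISPR line, a separate experiment with 1 library per condition, Hk2 was likewise lower with Dox in enterocyte-like cells (-0.93) and nearer to its level without Dox in ISC-like cells (-0.11). The share of the enterocyte-like class taken by the cluster with the higher Hk2, led by Apoa4, was 31.8% and 44.6% without EIPA and 28.0% and 25.9% with it, and 27.2% without and 18.8% with Dox. Within the cluster led by Fabp1, Hk2 was at 23.69 and 20.45 CPM without and 14.85 and 19.37 CPM with EIPA, and within that led by Apoa4 at 69.04 and 55.45 CPM without and 53.31 and 73.37 CPM with EIPA, higher in experiment 2. The part of the shares of these clusters in the difference was not tested.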

How the results depend on the processing

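Depth limits Hk1 in ISC-like cells and all members in tuft-like cells, and 2 libraries a group limit every test; the 8 enterocyte-like levels above and the 1 below ISC-like kept their order under each of 4 alternatives (high doublet scores removed, stricter limits on cells, no correction across libraries, TMM-scaled CPM). In what follows, classes are in the order all cells, ISC-like, proliferating-like, enterocyte-like, Goblet/Paneth-like, EEC-like and tuft-like unless named. Genes called with EIPA (0, 0, 0, 32, 34, 2 and 4) became 586, 21, 102, 560, 116, 20 and 2 with DESeq2, 198, 127, 109, 540, 400, 0 and 52 with no filter on low counts, and 839, 719, 734, 1332, 753, 213 and 39 with the experiment as a block; the block moved members called to 4 in ISC-like and 1 in Goblet/Paneth-like cells and changed no other call of a member. DESeq2 called 1 member in enterocyte-like cells (Gapdh) and no filter 1 in Goblet/Paneth-like cells (Hk1). Library-size scaling moved enterocyte-like genes called to 1, Goblet/Paneth-like to 76 and Goblet/Paneth-like minus ISC-like (23) to 60. With high doublet scores removed, genes called were 0 in tuft-like and in EEC-like cells, 13 in Goblet/Paneth-like and 17 in enterocyte-like cells and 309 for enterocyte-like minus ISC-like (519). Without correction across libraries they were 33 in ISC-like and 8 in EEC-like cells, 190 for enterocyte-like minus ISC-like and 35 for Goblet/Paneth-like minus ISC-like, and with Leiden resolution 1.2 they were 2 in tuft-like, 1 in enterocyte-like and 9 in EEC-like cells. Leaving out 1 WT library at a time, which unbalances the experiments and assumes that a lone library varies like the others, gave 0 to 137, 0 to 38, 0 to 5, 1 to 1088, 0 to 136, 0 to 109 and 7 to 75 genes, 0 to 3467 for enterocyte-like minus ISC-like and 13 to 84 for Goblet/Paneth-like minus ISC-like, with 0 to 1 member called in enterocyte-like cells, in tuft-like cells and for enterocyte-like minus ISC-like, and 0 elsewhere. The members' median change over all cells ran from -0.07 to 0.52 and in ISC-like cells from -0.17 to 0.54.

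Of the members over all cells and the 3 of lowest p (or called) in each class, estimates changed sign only when a library was left out; over all 10 members, the other alternatives moved the number of positive EIPA estimates to between 5 and 9 in proliferating-like cells, 5 and 8 in Goblet/Paneth-like and in EEC-like cells, 6 and 9 in tuft-like cells and 4 and 8 for enterocyte-like minus ISC-like. From the lowest value (without WT -EIPA 2) to the highest (without WT -EIPA 1), the EIPA change over all cells was -0.08 to 0.73 for Pfkp, -0.08 to 0.42 for Aldoa, -0.12 to 0.53 for Pgk1, -0.14 to 0.38 for Pkm, -0.02 to 0.45 for Ldha and -0.06 to 0.60 for Eno1, with -0.02 to 0.23 for Hk2 in Goblet/Paneth-like and -0.09 to 0.49 for Hk1 in EEC-like cells. Pfkl over all cells ran from -0.57 (without WT +EIPA 1) to 0.50 (without WT -EIPA 1), with 0.25 without WT +EIPA 2, Pfkl in tuft-like cells from -0.93 (without WT -EIPA 2) to 0.59 (without WT -EIPA 1), and Pkm was also at -0.03 without WT +EIPA 1. The experiment difference without WT -EIPA 2 was -0.18 for Hk1, -0.07 for Hk2 and -0.22 for Gapdh over all cells and -0.03 for Gapdh in ISC-like cells, and Gapdh over all cells was at -0.09 without WT +EIPA 1. The cause of these was not tested.

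Members called between the experiments (3, 9, 7, 1, 5, 6 and 1) became 7 over all cells, 4 in ISC-like, 3 in proliferating-like, 0 in tuft-like and 2 in EEC-like cells with DESeq2; 7 over all cells, 2 in enterocyte-like and 2 in tuft-like cells with no filter; 7 over all cells and 3 in enterocyte-like cells with library-size scaling; and 5 over all cells and 0 in tuft-like cells with high doublet scores removed. They were 5 over all cells, 3 in enterocyte-like and 2 in tuft-like cells with stricter limits on cells, 4 in ISC-like and 7 in tuft-like cells without correction across libraries, 3 in enterocyte-like cells with Leiden resolution 1.2, and, with no EIPA term, 0 over all cells, 0 in enterocyte-like, 2 in EEC-like and 1 in both proliferating-like and Goblet/Paneth-like cells. Leaving out 1 library gave 0 to 0, 1 to 9, 1 to 4, 0 to 4, 0 to 6, 1 to 4 and 0 to 2. The number of all genes called between the experiments moved as well. With every library kept, the alternatives called 59 to 2557 genes over all cells and 451 to 3862 in proliferating-like cells. The counts of members are thus to be read beside a changing count of all genes. With Dox, members lower past the fold were 0 and higher 1 in ISC-like cells without correction across libraries, 2 over all cells and 1 in enterocyte-like cells with stricter limits, and 1 in enterocyte-like cells with TMM scaling. Those lower were also 6 in proliferating-like cells without correction and 4 in Goblet/Paneth-like cells with TMM scaling. In EEC-like cells with high doublet scores removed they were 9 in place of 8, beside 7.25% of all genes in place of 3.85%. Removal of doublets by the caller's own threshold was not run.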

Other observations

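An unnamed cluster of 1941 cells was led by Tm4sf4, Sprr1a, Clu, Anxa1 and Ly6a. Ldha was at 1719 CPM in its lowest library, 2794 CPM at the median and 3594 CPM in its highest, and Gapdh at 2464, 4178 and 4912 CPM, so that its lowest library lay below every enterocyte-like library for both. Hk2, low in enterocyte-like cells as a class, was at 47.7, 79.3 and 88.3 CPM in this cluster, and Hk1 at 21.3, 40.6 and 65.0 CPM. The cluster held 99 and 246 cells in WT -EIPA, 370 and 639 in WT +EIPA, 244 in CRISPR -Dox and 343 in CRISPR +Dox. It was named from no marker list, its cells were found by clustering the same libraries, and no test was run on it; it was chosen after its values were seen. Another unnamed cluster, led by St3gal4, Gstm3 and Arg2, held Ldha at 2182, 2616 and 2880 CPM, Gapdh at 2805, 3688 and 4782 CPM and Hk2 at 24.88, 33.52 and 41.65 CPM.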
